A study of Homo sapiens with 8 samples.

Results

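The genes described here are 10 early-response genes: the FOS family (FOS, FOSB, FOSL1 and FOSL2), the JUN family (JUN, JUNB and JUND), ATF3, EGR1 and IER3. They were chosen by gene symbol among the 20531 genes listed for each library, with earlier results of these data known. SKBR-3 and BT474m1 are breast cancer cell lines, and their RNA was sequenced after 48 h in DMSO (the vehicle), 300 nM lapatinib, 300 nM JQ1, or 300 nM of each together, which gave 8 libraries with 1 library per group. Lapatinib inhibits the kinases of EGFR and HER2, and JQ1 displaces BET bromodomain proteins from acetylated chromatin. Both lines overexpress HER2. SKBR-3 is negative for the estrogen and progesterone receptors, whereas BT474m1, a derivative of BT474, is positive for both. Each line is a single established culture grown in medium with serum, which all 8 libraries share.

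FOS and JUN proteins are basic leucine zipper factors that together form AP-1. JUN proteins pair with each other or with FOS proteins, while FOS proteins need a JUN partner to bind DNA. ATF3 is a stress-induced relative that pairs with JUN proteins, EGR1 is a zinc finger factor, and IER3 is a stress- and growth-factor-induced survival protein that is not a DNA-binding factor. Several of these genes, FOS and EGR1 among them, are known for a brief burst of transcription after growth factors act through ERK, serum response factor and its ternary complex partners. A library taken after 48 h of drug shows a standing level and not that burst.

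Because every group held 1 library, no difference within a line could be set against the spread between replicates. A fit over all 8 libraries with the line as a block is the one source of p-values below, and in it the lines stand in for replicates. Values are gene-level read estimates that the authors scaled to an upper quartile near 1000, and are written below without a unit. The reads behind them were recovered, and 95% intervals from these reads are given in brackets. Such intervals cover counting error only, not the spread between cultures. In bulk RNA, a change in every cell and a change in some of the cells cannot be told apart. A gene is called raised or lowered at a 2-fold difference or more on the log2(value + 1) scale, and 14429 genes that reached 10 in at least 1 library were kept for the calls. Of the 10 genes, 9 were kept. The exception was FOSL1.

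The libraries held 21420113 to 34112379 reads on genes. ERBB2, which encodes HER2, stood at 94678 to 277872 in all 8 libraries. The estrogen receptor gene ESR1 was at 16.8 or less in SKBR-3, whereas BT474m1 libraries had 189.9 to 1827, and the luminal keratin gene KRT8 was at 24517 or more in every library. The adhesion gene CDH1, a defining epithelial marker, was at 2.58 to 15.1 in the SKBR-3 libraries, against 19413 or more in BT474m1. Of 5 fibroblast markers 1 was kept, COL1A1, at 24.1 to 124 in SKBR-3 and 337 to 1253 in BT474m1. Of 4 leukocyte markers the defining PTPRC was at 3.38 or less, while CD68 reached 407 in SKBR-3 with lapatinib and LYZ 80.7 in BT474m1 with lapatinib. Of 3 endothelial markers the defining PECAM1 was at 0.583 or less, while CDH5 was highest in the DMSO library of each line, at 126 in SKBR-3 and 36.3 in BT474m1, and VWF reached 153 in untreated BT474m1. These marker genes moved with treatment, and their part in the results was not tested.

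Promoter sequence was found for 8 of the 10 genes in RefSeq (GRCh38.p14), and FOSL1 and IER3 had no entry. The 250 bases before each start site were searched on both strands for the AP-1 element TGANTCA, the cyclic AMP response element TGACGTCA, its looser form TGACNTCA, the short form TGACGT, the CArG box of serum response factor and the EGR element GCGNGGGCG. The full element TGACGTCA also counts as the looser and the short form. The stretches that hold the matches are shown because they set these promoters side by side, with each match in capitals. Every sequence reads 5′ to 3′ on the gene's own strand.
JUN: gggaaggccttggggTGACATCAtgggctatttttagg
ATF3: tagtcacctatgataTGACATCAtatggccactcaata
FOS: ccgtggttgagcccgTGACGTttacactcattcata
FOSB: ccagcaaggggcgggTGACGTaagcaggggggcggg
FOSL2: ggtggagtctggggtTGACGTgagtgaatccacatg
JUND: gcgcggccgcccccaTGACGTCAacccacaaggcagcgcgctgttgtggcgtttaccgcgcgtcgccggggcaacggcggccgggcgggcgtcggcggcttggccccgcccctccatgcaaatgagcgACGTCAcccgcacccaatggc
EGR1: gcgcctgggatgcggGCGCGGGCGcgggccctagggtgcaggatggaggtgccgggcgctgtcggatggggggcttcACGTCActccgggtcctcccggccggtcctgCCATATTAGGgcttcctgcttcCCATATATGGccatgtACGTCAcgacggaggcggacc

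In GRCh38.p14 these stretches lie at chr1:58784092-58784129 (minus strand) for JUN, chr1:212565269-212565306 (plus) for ATF3, chr14:75278749-75278784 (plus) for FOS, chr19:45467921-45467956 (plus) for FOSB, chr2:28392777-28392812 (plus) for FOSL2, chr19:18281689-18281837 (minus) for JUND and chr5:138465266-138465432 (plus) for EGR1. JUN and ATF3 carried the same 8 letters, TGACATCA. The 3 FOS family promoters each held TGACGT within a narrow band, 66 to 55 bases before the start. This position was not particular to them, since EGR1 held the short form 67 to 62 bases before the start and the JUN match lay 67 to 60 bases before it. Within the searched windows, EGR1 alone of the 8 held the CArG box, in 2 copies, and it also held the EGR element. Sequence further upstream was not searched, so a CArG box or other element lying there, in FOS or any other gene, would have been missed. ATF3 has 2 start sites in the table, and the window of the downstream one held none of the motifs. TGANTCA was in no window of the 8 genes. JUNB had no match to any of the 6 motifs. Among the windows of the same length for all 35116 promoters, the share with a match was 6.57% for TGANTCA, 1.65% for TGACGTCA, 6.87% for TGACNTCA, 7.10% for TGACGT, 1.16% for the CArG box and 8.41% for GCGNGGGCG. A match is a run of letters in a reference window and was not tested as a binding site here.

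The JUN family supplies the obligate subunit of AP-1. JUN, the founding AP-1 subunit, stood at 396 in untreated SKBR-3, 263 in the lapatinib library, 1543 in the JQ1 library and 1482 in the combination. In BT474m1 the JUN values were 844, 1487, 2220.3 and 4079 in the same order of treatments. Every JQ1-treated library of a line therefore stood above the matching library without JQ1. The log2 fold change of JUN with JQ1 was 1.96 in SKBR-3 [1.83 to 2.10] and 1.39 in BT474m1 [1.32 to 1.47]. When JQ1 was added to lapatinib it was 2.49 [2.33 to 2.66] and 1.45 [1.39 to 1.52], respectively. Lapatinib alone moved JUN in opposite directions in the lines, by -0.59 in SKBR-3 [-0.79 to -0.39] and by 0.82 in BT474m1 [0.73 to 0.91], neither of which reached 2-fold.

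JUND, the JUN family member usually expressed at steady levels in resting cells, measured 1089, 2007, 2843 and 3869 in SKBR-3 with DMSO, lapatinib, JQ1 and both drugs. In BT474m1 the JUND values were 2123, 2995, 4572 and 5790.1. The order of treatments was the same in both lines, and the 4 libraries of a line were separated beyond counting error. JQ1 raised JUND by 1.38 log2 units in SKBR-3 [1.30 to 1.47] and 1.11 in BT474m1 [1.06 to 1.16]. The value for JQ1 added to lapatinib was 0.95 in both lines, with a difference between lines of 0.00 [-0.08 to 0.09].

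JUNB, which often opposes JUN on shared targets, measured 697 in untreated SKBR-3 and 1468, 1202 and 1242 with lapatinib, JQ1 and both drugs. All 3 treated SKBR-3 libraries were above the DMSO library. In BT474m1 JUNB stayed between 1139.6 and 1465 in all 4 libraries. Lapatinib raised JUNB by 1.07 in SKBR-3 [0.96 to 1.19], while its value in BT474m1 was 0.09 [0.00 to 0.17].

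**Figure D1:**
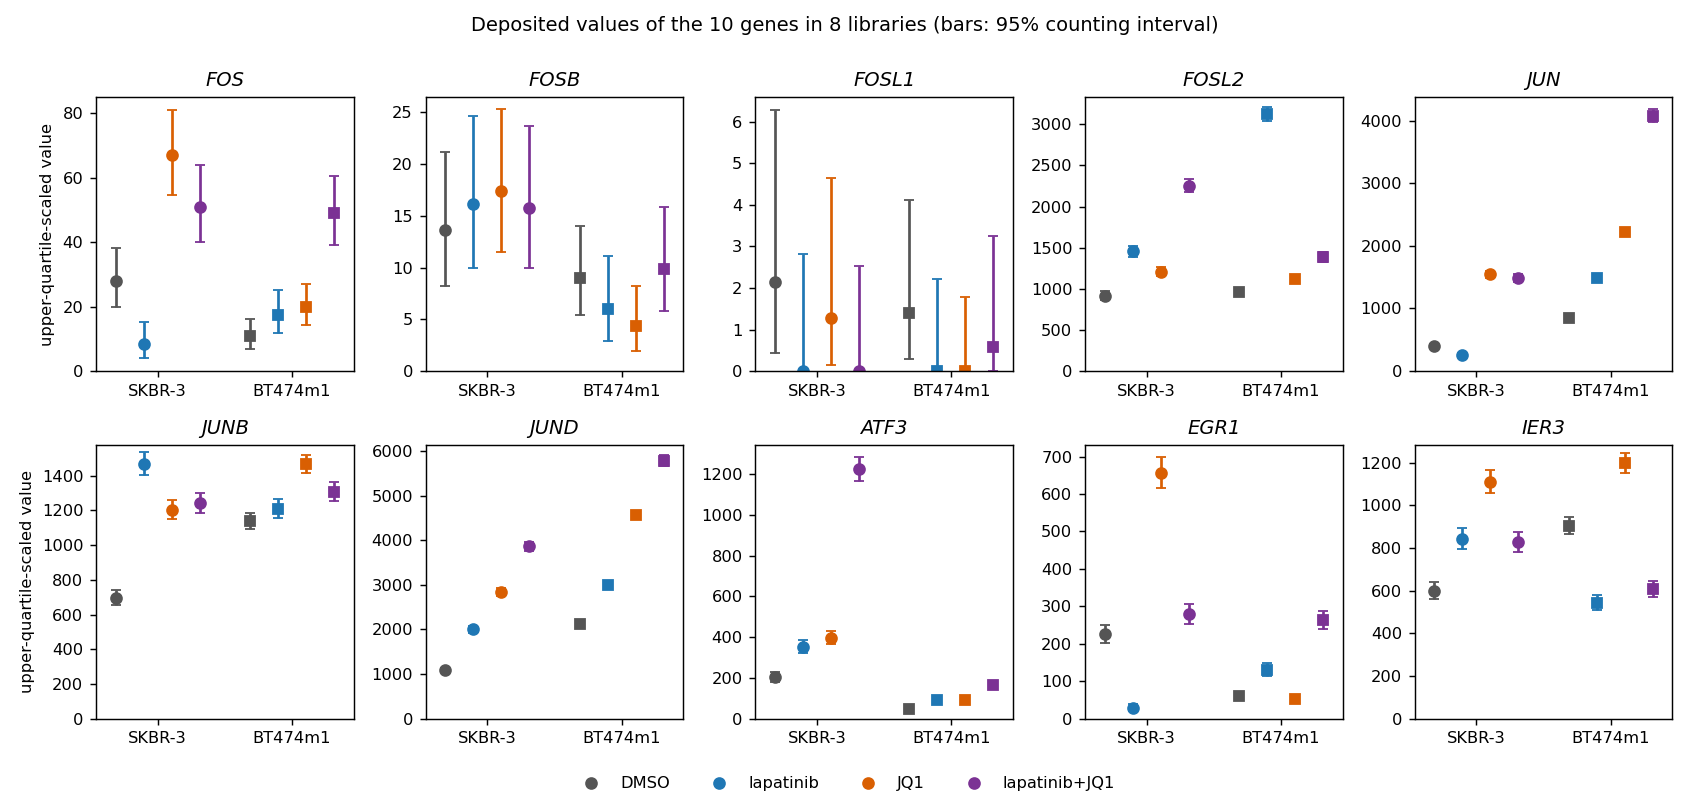
Upper-quartile-scaled value (vertical axis, linear from 0, a scale of its own per gene) of each of the 10 genes in the 4 SKBR-3 libraries (circles) and the 4 BT474m1 libraries (squares), coloured by treatment; bars are 95% counting intervals and each point is 1 library. JUND climbs in the same order in both lines, from 1089 to 3869 and from 2123 to 5790.1, whereas EGR1 is at 27.6 with lapatinib in SKBR-3 and at 130.1 in BT474m1.

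In the FOS family, FOSL2 was the one abundant member, at 1283 to 5191 reads a library. FOSL2 (FRA2), a FOS protein without the strong activation domain of FOS, measured 918, 1455, 1206 and 2256 in SKBR-3, in the order DMSO, lapatinib, JQ1 and the combination. The corresponding values in BT474m1 were 958, 3127, 1122 and 1385. The untreated lines thus started at nearly the same level, and the highest FOSL2 library was lapatinib in BT474m1 but the combination in SKBR-3. Lapatinib raised FOSL2 by 1.71 in BT474m1 [1.63 to 1.78] and its value in SKBR-3 was 0.66 [0.56 to 0.77]. Adding JQ1 to lapatinib lowered FOSL2 by -1.17 in BT474m1 [-1.25 to -1.10], while the same addition gave 0.63 in SKBR-3 [0.55 to 0.72].

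FOS, the classic serum- and ERK-induced gene, was low throughout. It measured 27.9, 8.42, 67.0 and 50.9 in SKBR-3 with DMSO, lapatinib, JQ1 and both drugs, from 39, 11, 104 and 74 reads. In BT474m1 the FOS values were 10.8, 17.5, 19.8 and 49.0, from 23, 29, 41 and 84 reads. The combination gave almost the same FOS level in the lines, and with lapatinib alone the counting intervals of the lines overlapped, at 4.20 to 15.1 in SKBR-3 and 11.7 to 25.1 in BT474m1. In SKBR-3 lapatinib lowered FOS by -1.62 [-2.84 to -0.74] and JQ1 raised it by 1.23 [0.72 to 1.83]. In BT474m1 neither single drug reached 2-fold, and the combination raised FOS by 2.08 [1.5 to 2.91].

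FOSB and FOSL1 were near the limit of detection. FOSB ranged from 13.6 to 17.4 in the SKBR-3 libraries and from 4.35 to 9.91 in BT474m1, from 9 to 27 reads a library. The counting interval of every FOSB fold change between treatments within a line included 0, so no treatment effect on FOSB was detectable at this depth. Its 1 call, a rise when lapatinib was added to JQ1 in BT474m1, had a log2 fold change of 1.03 with an interval that reached below 0 [-0.06 to 2.54]. FOSL1 (FRA1), the FOS member known from basal-like breast cancer cells, was listed at 0 in 4 libraries and had at most 3 reads in the others. With the floor of 3 reads, a count of 0 allows a FOSL1 value of up to 1.45 to 2.30 in those 4 libraries, where the plotted intervals end at 1.78 to 2.82, and no fold change is given.

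Levels of different genes can be compared only per length, so each value was divided by the length of the gene's canonical GENCODE v44 transcript in kilobases, from 1237 bases for IER3 to 6713 for FOSL2. Per kilobase, JUND made up 52.9% to 63.9% of the JUN family in every library. The JUN portion was 11.4% in untreated SKBR-3, 4.20% in the lapatinib library, 18.2% in the JQ1 library and 14.5% in the combination. In BT474m1 the JUN share was 13.1%, 17.1%, 17.7% and 25.2%. FOSL2 made up 82.8% to 97.9% of the FOS family, with its lowest share in SKBR-3 with JQ1, where FOS reached 14.7%. The summed JUN family level per kilobase exceeded the summed FOS family level in all 8 libraries, with a ratio of 5.61 in BT474m1 with lapatinib and 21.6 in BT474m1 with JQ1. In SKBR-3 the same ratio stayed between 6.88 and 12. The transcript each gene uses in these cells was not measured, so these shares depend on the annotated lengths.

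**Figure D2:**
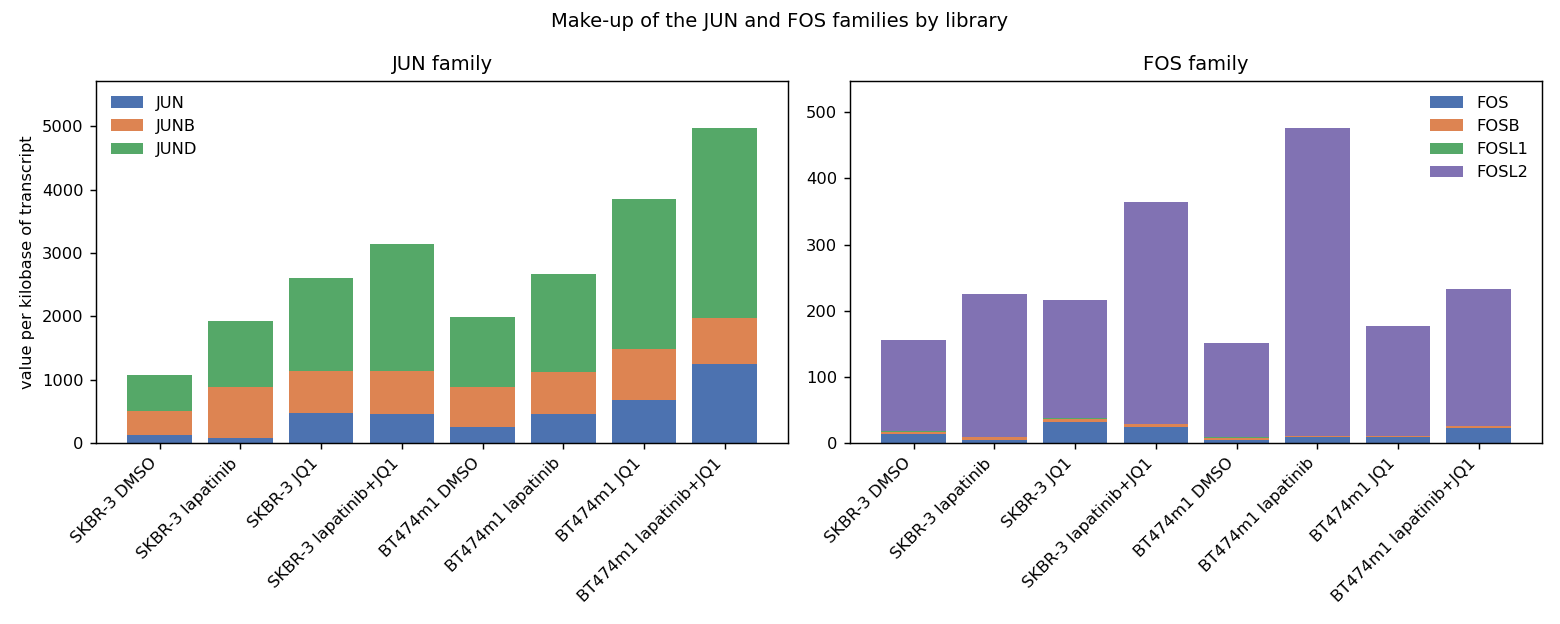
Value per kilobase of canonical transcript (vertical axis, linear from 0) of the JUN family (left) and the FOS family (right) in each of the 8 libraries, stacked by gene. JUND is the largest JUN family portion in every library (52.9% to 63.9%) and FOSL2 the largest FOS family portion (82.8% to 97.9%). The axes differ in scale.

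ATF3, which represses or activates stress targets depending on its partner, was higher in SKBR-3 than in BT474m1 under every treatment. It measured 205, 352, 398 and 1225 in SKBR-3 with DMSO, lapatinib, JQ1 and both drugs, and 45.7, 92.8, 89.4 and 165 in BT474m1. In both lines the DMSO library was lowest and the combination highest, with the single drugs between them. The combination raised ATF3 by 2.58 in SKBR-3 [2.4 to 2.77] and by 1.83 in BT474m1 [1.51 to 2.20]. The difference between these was -0.75 as BT474m1 minus SKBR-3 [-1.12 to -0.37]. For the single drugs the lines did not differ beyond counting error, with differences of 0.22 for lapatinib [-0.20 to 0.65] and -0.00 for JQ1 [-0.41 to 0.40]; these intervals still allow a modest difference either way.

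EGR1, a growth-factor-induced factor whose own promoter holds the CArG boxes printed above, moved furthest of the 9 kept genes in response to lapatinib in SKBR-3. Its SKBR-3 values were 225 in DMSO, 27.6 under lapatinib, 657 under JQ1 and 279 in the combination, from 314, 36, 1019 and 405 reads. In BT474m1 the EGR1 values were 59.9, 130.1, 52.2 and 263. The lapatinib library was thus the lowest of the 4 in SKBR-3, whereas in BT474m1 both lapatinib-treated libraries were above both without it. The log2 fold change with lapatinib was -2.98 in SKBR-3 [-3.57 to -2.53] and 1.11 in BT474m1 [0.80 to 1.45]. With JQ1 it was 1.54 in SKBR-3 [1.36 to 1.73] and -0.20 in BT474m1 [-0.58 to 0.18].

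IER3 measured 598, 843, 1110.2 and 827 in SKBR-3 with DMSO, lapatinib, JQ1 and both drugs, and 904, 544, 1200.0 and 608 in BT474m1. The JQ1 library was the highest in both lines. The lapatinib-treated libraries, with or without JQ1, were the lowest in BT474m1 but not in SKBR-3. No IER3 difference from DMSO reached 2-fold, and the nearest was 0.89 with JQ1 in SKBR-3 [0.77 to 1.01].

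The comparison of lapatinib with DMSO asks which genes moved when the HER2 signal was blocked. In SKBR-3 it raised 1 of the 9 kept genes, JUNB, where 11.1% of all kept genes were raised, and lowered 2, FOS and EGR1, where 9.44% were lowered. In BT474m1 it raised 3, FOSL2, ATF3 and EGR1, against 14.0% of all kept genes, and lowered none, against 8.06%. The median log2 fold change of the 9 genes was 0.49 in SKBR-3 and 0.64 in BT474m1, beside 0.05 and 0.07 over all kept genes. ATF3 in BT474m1 sat on the threshold, at 1.0, with 0.95 under the median of ratios scaling and 0.88 with a pseudocount of 10. The lines thus shared a positive median but no called gene with the same direction.

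With JQ1, all 9 kept genes were above DMSO in SKBR-3 and 8 of them had counting intervals clear of no change. By contrast, 40.4% of all kept genes were above DMSO there, and 25.4% had such an interval above 0. In BT474m1 7 of the 9 had intervals above 0, against 31.2% of all kept genes, while FOSB and EGR1 had values below 0 with intervals that included it. JQ1 raised FOS, JUN, JUND and EGR1 in SKBR-3, against 3.75% of all kept genes, and lowered none, against 11.8%. In BT474m1 JUN and JUND were raised, against 4.81%, and again none was lowered, against 11.8%. The medians of the 9 genes were 0.96 in SKBR-3 and 0.41 in BT474m1, beside -0.08 and -0.06 over all kept genes.

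The combination asks what remained of each drug's effect in the presence of the other. Against DMSO it raised FOSL2, JUN, JUND and ATF3 in SKBR-3, against 10.8% of all kept genes, and FOS, JUN, JUND, ATF3 and EGR1 in BT474m1, against 14.2%. It lowered none of the 9 in either line, where 20.8% and 15.3% of all kept genes were lowered. Against lapatinib alone, FOS, JUN and EGR1 were raised in both lines, although EGR1 in BT474m1 sat on the threshold at 1.01 and was at 0.96 with a pseudocount of 10. ATF3 was raised in SKBR-3 and had a value of 0.82 in BT474m1, with raised backgrounds of 3.22% in SKBR-3 and 5.20% in BT474m1. FOSL2 was lowered in BT474m1, against 12.5%, and none of the 9 in SKBR-3, against 16.2%. Against JQ1 alone, ATF3 was raised and EGR1 lowered in SKBR-3, where 9.79% of all kept genes were raised and 12.3% lowered. In BT474m1 FOS, FOSB and EGR1 were raised against JQ1 alone, with a background of 12.4%, and none was lowered, with a background of 7.27%. With a pseudocount of 10 the FOS and FOSB calls were lost there, at 0.98 and 0.47, and FOSB was at 0.97 under the median of ratios scaling. These comparisons share libraries, so their calls are not independent of each other.

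When both lines entered a limma fit of treatment with the line as a block, 3 of the 9 kept genes passed an adjusted p of 0.05, all with the combination against DMSO. JUND was raised by 1.64 ± 0.16 log2 units (SE, limma adjusted p = 0.00293), ATF3 by 2.20 ± 0.31 (limma adjusted p = 0.00685) and JUN by 2.09 ± 0.41 (limma adjusted p = 0.0185), and each was higher in both lines. In that comparison 7.52% of all kept genes were raised and 10.9% lowered. Leaving out the SKBR-3 DMSO library left JUND alone, and without the BT474m1 DMSO library or either combination library ATF3 and JUND passed and JUN did not. The share of all kept genes raised fell along with these calls, to 0.846% without the SKBR-3 DMSO library, 1.43% without the BT474m1 DMSO library, and 1.32% and 3.96% without the SKBR-3 and BT474m1 combination libraries. Without either lapatinib library FOSL2 passed too, where 5.74% and 5.81% of all kept genes were raised.

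In the other comparisons of the limma fit none of the 9 passed, with adjusted p-values for JUND of 0.0633 with lapatinib and 0.0654 with JQ1. Unadjusted p-values under 0.05 were found for 4 genes with lapatinib (FOSL2, JUNB, JUND and ATF3), for 4 with JQ1 (JUN, JUNB, JUND and ATF3), for 4 with JQ1 added to lapatinib (FOS, JUN, JUND and ATF3) and for 2 with lapatinib added to JQ1 (JUND and ATF3), all of them raised. At the same unadjusted threshold 12.8%, 5.32%, 4.95% and 11.4% of all kept genes were raised in these comparisons. At the adjusted threshold the limma calls over all kept genes that rose and fell were 1.73% and 2.92% with lapatinib, 0.0139% and 0.0416% with JQ1, 0.0347% and 0.215% with JQ1 added to lapatinib, and 1.47% and 2.79% with lapatinib added to JQ1. EGR1, whose lapatinib effect had opposite signs in the lines, had a limma adjusted p of 0.677 for lapatinib. The residual of this fit is the difference in response between the lines, with 3 degrees of freedom.

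**Figure D3:**
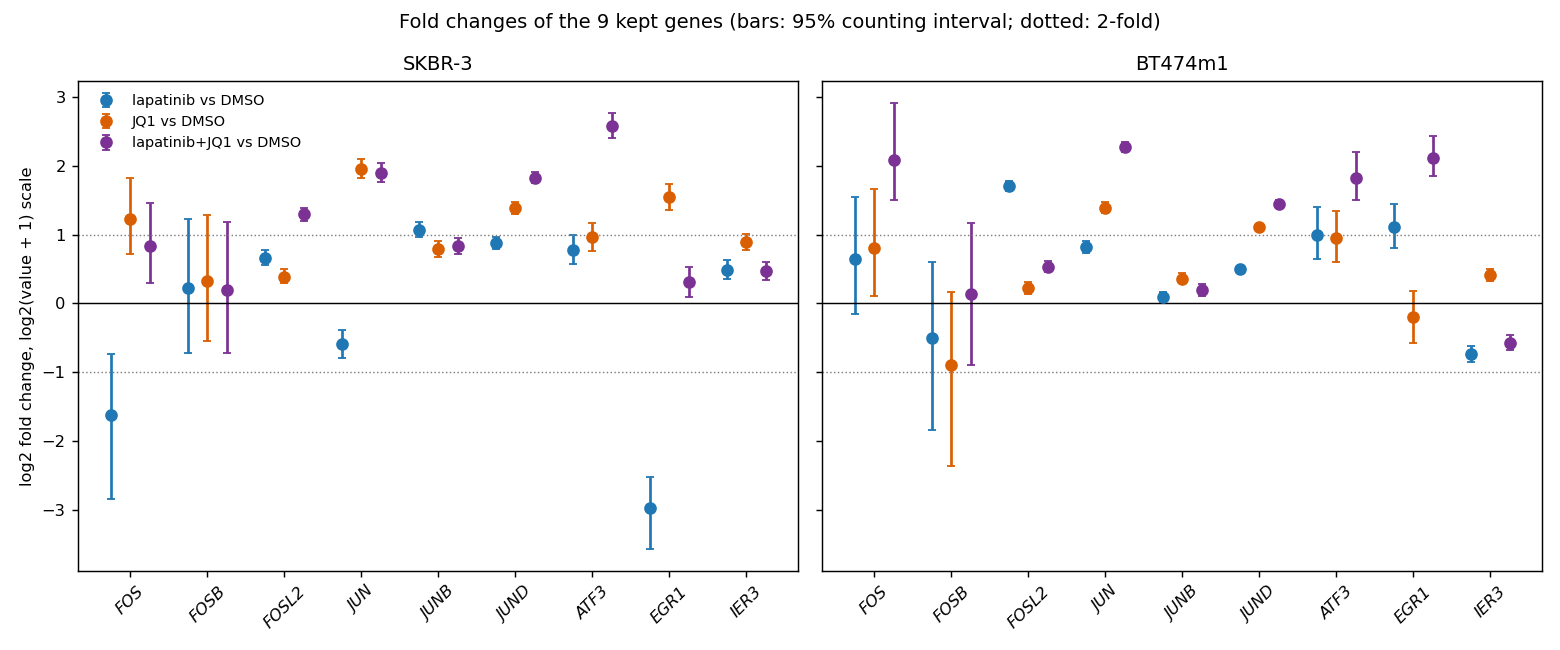
Log2 fold change against DMSO on the log2(value + 1) scale (vertical axis) of the 9 kept genes in SKBR-3 (left) and BT474m1 (right) for lapatinib, JQ1 and both; bars are 95% counting intervals and dotted lines mark 2-fold. In SKBR-3 every JQ1 point lies above 0 and EGR1 with lapatinib is the lowest point at -2.98; in BT474m1 EGR1 with lapatinib is at 1.11.

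The lines differed most at EGR1. Its lapatinib effect differed by 4.09 log2 units, as BT474m1 minus SKBR-3 [3.50 to 4.68], and by 3.55 in the presence of JQ1 [3.20 to 3.89]. For FOS the difference in lapatinib effect was 2.26 [1.01 to 3.51], for JUN 1.40 [1.19 to 1.61] and for FOSL2 1.04 [0.92 to 1.17]. IER3 and JUNB differed the other way, by -1.23 [-1.40 to -1.05] and -0.99 [-1.13 to -0.85]. With 1 library a group, a difference between lines and a difference between single cultures cannot be told apart.

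The effect of each drug also changed with the other present. The departure of the combination from the sum of the single log2 fold changes was 1.75 for EGR1 in SKBR-3 [1.22 to 2.27] and 1.2 in BT474m1 [0.77 to 1.64], both above the sum. FOS in SKBR-3 was above the sum as well, by 1.23 [0.17 to 2.28]. ATF3 exceeded it by 0.84 in SKBR-3 [0.59 to 1.09], and its departure in BT474m1 was -0.13 [-0.58 to 0.33]. JUN in SKBR-3 was above it by 0.53, and FOSL2 in SKBR-3 by 0.24 [0.11 to 0.37]. FOSB in BT474m1 had a departure of 1.53 with an interval that included 0 [-0.07 to 3.14]. Furthest below the sum were FOSL2 in BT474m1 at -1.40 [-1.51 to -1.29], JUNB in SKBR-3 at -1.03 [-1.17 to -0.88] and IER3 in SKBR-3 at -0.92 [-1.09 to -0.75]. JUND lay below it in both lines, at -0.44 in SKBR-3 [-0.54 to -0.33] and -0.16 in BT474m1, and JUNB and IER3 were each at -0.25 in BT474m1. JUN in BT474m1 lay at 0.06 [-0.04 to 0.16], where the single effects added up within counting error.

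Untreated BT474m1 and SKBR-3 differed by 2-fold or more in 4 of the 9 kept genes. Counting intervals were clear of no change for 7 of the 9, among them JUND at 0.96 [0.88 to 1.05]. Of these, 4 lay above 0 and 3 below, where 49.0% and 35.3% of all kept genes did, so such intervals were common over all genes. JUN was raised in BT474m1 by 1.09 [0.95 to 1.23], where 26.8% of all kept genes were raised. FOS, EGR1 and ATF3 were lowered, by -1.29 [-2.17 to -0.58], -1.89 [-2.22 to -1.61] and -2.14 [-2.51 to -1.83], where 15.6% of all kept genes were lowered. The FOS call was lost with a pseudocount of 10, where its value was -0.86. The JUN call was lost when libraries were scaled by the median of ratios, where its value was 0.94. FOSL2 hardly differed, at 0.06 [-0.04 to 0.16], and its sign turned under that scaling.

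The ERK output and feedback genes, a list of 10 genes induced by ERK that holds phosphatases, Sprouty and Spred inhibitors, ETS factors and PHLDA1, were all kept. Lapatinib lowered 8 of the 10 in BT474m1, with a median log2 fold change of -2.84, and 4 of the 10 in SKBR-3, with a median of -0.83, beside the 8.06% and 9.44% of all kept genes given above. SPRY4, a Sprouty feedback inhibitor, measured 126 and 16.8 with DMSO and lapatinib in SKBR-3, and 683 and 40.4 in BT474m1. The ETS factor gene ETV4 fell to 3.06 from 24.3 in SKBR-3, and BT474m1 showed a fall to 3.01 from 201. ETV5, a close relative, went from 619 to 6.63 in BT474m1, and its call in SKBR-3 rested on a DMSO value of 1.43 and a listed 0. DUSP4, a phosphatase of ERK, was at 1105 with DMSO and 1301 with lapatinib in SKBR-3. EGR1 was lowered in SKBR-3, as were SPRY4 and ETV4, but raised in BT474m1, where SPRY4 stood at -4.05 [-4.46 to -3.73]. JQ1 raised 6 of the 10 in SKBR-3, with a median of 1.10, and none in BT474m1, with a median of -0.20, while it lowered 1 there. JQ1 raised 3.75% of all kept genes in SKBR-3 and 4.81% in BT474m1, and the 1 of 10 lowered was near the 11.8% lowered there.

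**Figure D4:**
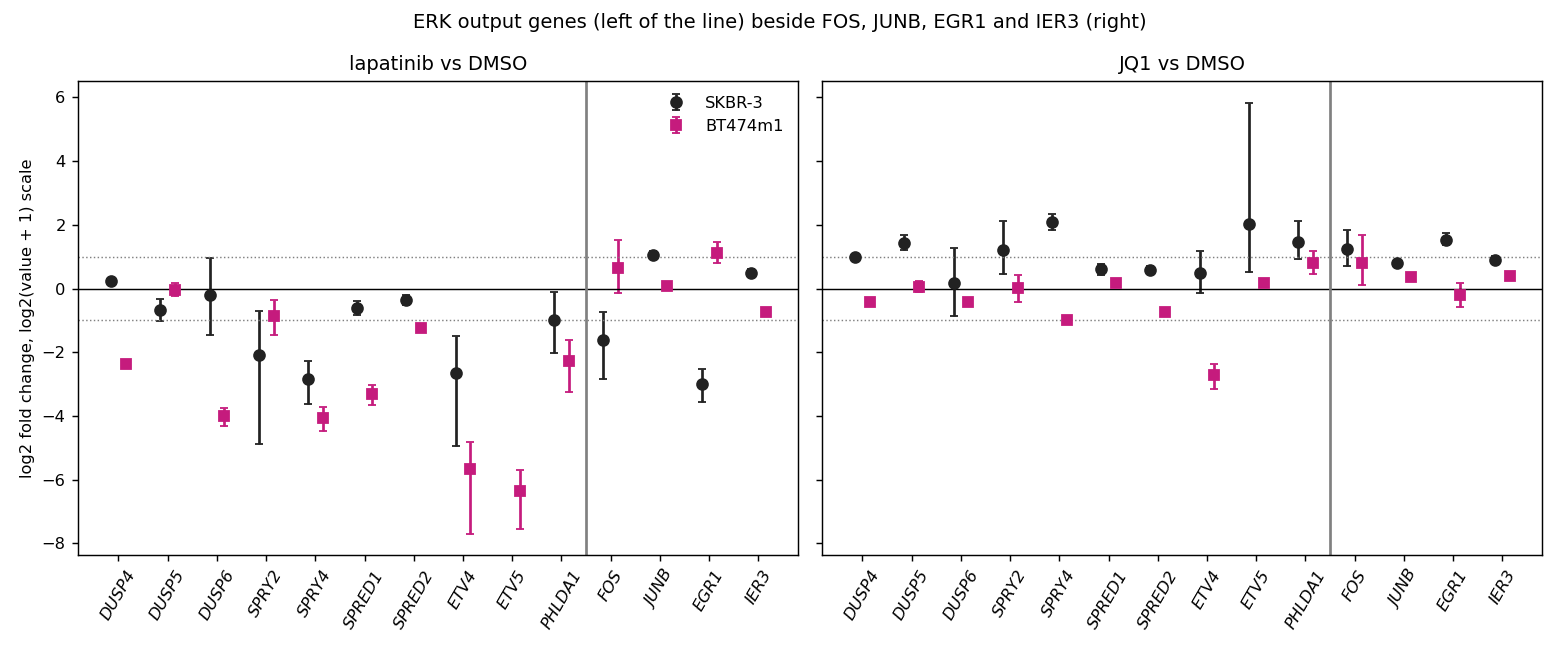
Log2 fold change on the log2(value + 1) scale (vertical axis) of the 10 ERK output genes and, right of the line, FOS, JUNB, EGR1 and IER3, with lapatinib (left panel) and JQ1 (right panel) against DMSO, in SKBR-3 (circles) and BT474m1 (squares); bars are 95% counting intervals, and ETV5 with lapatinib in SKBR-3 is left out because it had a listed 0. With lapatinib in BT474m1, 8 of the 10 ERK output genes lie below the 2-fold line while EGR1 lies above it at 1.11.

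Other immediate early genes formed a list of 15, of which 13 were kept. In SKBR-3, JQ1 raised 5 of them and lowered 1, with a median of 0.80, where 3.75% of all kept genes were raised and 11.8% lowered. In BT474m1 it lowered 2 and raised 1, with a median of 0.38, near the 11.8% and 4.81% of all kept genes. IER5, a heat shock factor regulator, measured 629 and 1338 with DMSO and JQ1 in SKBR-3, and 165 and 471 in BT474m1. EGR3, a relative of EGR1, was at 2.86 or less in SKBR-3, and in BT474m1 it measured 10.4 with DMSO, 4.22 with lapatinib and 0.966 with JQ1. EGR3 was kept only through that DMSO library, and its lowered calls in BT474m1, 1 with lapatinib and 1 of the 2 with JQ1, are measured from the library that let it pass the filter. The 1 gene lowered with JQ1 in SKBR-3 was also EGR3, and that call rested on 2.86 with DMSO against 0.644 with JQ1, near the floor. With lapatinib 2 of the 13 were lowered and none raised in SKBR-3, where the EGR3 call rested on 2.86 against 0.766 and had an interval that included 0 [-7.52 to 1.43], while BT474m1 had 1 in each direction. Lapatinib lowered 9.44% and raised 11.1% of all kept genes in SKBR-3, and lowered 8.06% and raised 14.0% in BT474m1, so these counts lie near the background.

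All 6 stress genes known to be induced with ATF3 were kept. Lapatinib raised 4 of them in SKBR-3, with a median of 1.48, and 1 in BT474m1, with a median of 0.42, where 11.1% and 14.0% of all kept genes were raised. DDIT3 (CHOP), a stress factor that pairs with other zipper proteins, measured 72.3, 273, 68.9 and 1113 in SKBR-3 with DMSO, lapatinib, JQ1 and both drugs, and 319, 709, 446 and 854 in BT474m1. In SKBR-3 the combination raised 5 of these genes against DMSO (10.8% of all kept genes) and all 6 against JQ1 alone (9.79%), the same comparison in which ATF3 was raised by 1.62 [1.49 to 1.76]. In BT474m1 it raised 3 and lowered 1 against DMSO, where 14.2% of all kept genes were raised and 15.3% lowered, and raised none against JQ1 alone, where 12.4% were raised.

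Among 14 genes reported as AP-1 targets, 9 were kept, since several matrix protease and cytokine genes were at or near 0. JQ1 lowered 2 and raised none in SKBR-3, with a median of -0.71, and lowered 3 and raised 1 in BT474m1, with a median of -0.89. Of all kept genes JQ1 lowered 11.8% in each line and raised 3.75% in SKBR-3 and 4.81% in BT474m1. Without the gene that was at or under the floor of 3 reads in both libraries, CXCL8 in SKBR-3 and MMP9 in BT474m1, the medians were -0.32 and -0.60. TIMP1, a metalloprotease inhibitor, measured 83.0 and 26.4 with DMSO and JQ1 in SKBR-3, and 43.8 and 16.4 in BT474m1. The collagenase gene MMP13 stood at 20.0 and 1.29 in SKBR-3 and at 6.13 and 1.45 in BT474m1. In the other direction, and chosen after its value was seen, the heme oxygenase gene HMOX1 was raised with JQ1 in BT474m1 by 1.95 [1.68 to 2.26] and had a value of 0.70 in SKBR-3 [0.46 to 0.95]. PLAU and VEGFA also had values above 0 with JQ1 in both lines.

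Of 11 zipper partners 9 were kept, and lapatinib raised 1 in SKBR-3 and none in BT474m1, while lowering none. That 1 gene was MAF, which went from a listed 0 to 3.06 and was kept only through its BT474m1 values, and 11.1% of all kept genes were raised there. JQ1 lowered 1 of the 9 in SKBR-3 and raised none, and in BT474m1 it raised 2, against 4.81% of all kept genes, and lowered 1. The lowered counts were near the 11.8% of all kept genes lowered in each line. BATF, an AP-1 partner best known from lymphocytes, measured 331 and 101 with DMSO and JQ1 in SKBR-3, and 239 and 101 in BT474m1. All 12 upstream factors and kinases were kept, none was called with lapatinib, and JQ1 lowered 2 in SKBR-3 and 1 in BT474m1, near the 11.8% of all kept genes lowered in each line. The ternary complex factor gene ELK3 was lowered in both lines, from 93.1 to 33.5 and from 33.0 to 4.83. Of 5 corepressors and ubiquitin ligases, JQ1 lowered 1 in BT474m1, where 11.8% of all kept genes were lowered, and none was called with lapatinib in either line.

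Genes with the most similar pattern were sought by Pearson's r of log2(value + 1), centred within each line, over the 8 libraries and about 9840 genes that reached 100 in both lines. With 8 libraries and so many genes compared, high values are easy to find, and r is given as a description. JUN was nearest to DUSP10 (0.987), MPND (0.984) and IFT88 (0.978). JUND was nearest to TBC1D20 and ERCC6 (both 0.995) and ZNF654 (0.992), and ATF3 to RAPGEF2 (0.993), MYLIP (0.990) and STXBP3 (0.989). For EGR1 they were PITPNB (0.989), TMEM39B (0.979) and DNAJC21 (0.974), and for FOSL2 NRIP1 (0.975), PRKCE and MAN2A2 (both 0.968). FOS was closest to KTN1 (0.969), GTF2H3 (0.965) and CIDEB (0.955). JUNB was closest to SERAC1 (0.964), ZBTB42 (0.953) and COG2 (0.941), and IER3 to CDKN1A (0.952), TBC1D10A and TMEM45B (both 0.95). FOSB, at a few reads, had weaker neighbours in TRAPPC10 (0.848), NDOR1 (0.790) and NSUN4 (0.780). Among the members themselves, FOS went with JUN (0.94) and EGR1 (0.93), and JUND with ATF3 (0.90), while EGR1 and JUNB had an r of -0.31 over the same 8 libraries.

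Most of these genes are short and have few introns, a feature the choice of genes did not use. JUN, JUNB and JUND have a single exon in the canonical GENCODE v44 transcript, and 6 of the 9 kept genes span under 5000 bases in RefSeq, against a median of 29438 over all kept genes. The span of JUN is 3257 bases there but 7204 in GENCODE. With JQ1, 8.44% of kept genes under 5000 bases were raised in SKBR-3, beside 3.16% of longer ones, and the shares in BT474m1 were 8.82% and 4.29%. The part of gene span in the JQ1 response of these genes was not tested. FOSL2 overlaps a long noncoding RNA on its own strand, whose reads counting by strand would not separate. FOSB overlaps ERCC1 and JUNB overlaps HOOK2 on the opposite strand, and FOSL2 and IER3 also overlap antisense RNAs. The strand setting of the read counting is not given in the sources used here, so reads of partners on the opposite strand could not be told apart either. ERCC1 stood at 391 to 694 in the 8 libraries, well above FOSB on the same scale, which makes the FOSB values uncertain. HOOK2 stood at 321 to 1169.9, and JUNB values are uncertain in the same way.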

How the data were processed

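RNA was isolated from SKBR-3 and BT474m1 cells, and poly(A) libraries were sequenced. Of each library 1 gene table was deposited. Its values are a normalised signal: read counts per gene estimated by the authors and scaled so that the upper quartile of genes above 0 is about 1000. They are neither whole counts nor per length. The submitters' processing notes name hg19, Picard 1.88, SAMtools 1.2, RSEM, DESeq, R 3.2.2 and DESeq2 1.12.3, without their roles. The study's methods name another build and aligner, and Salmon but not RSEM. They also give a shorter exposure for cell lines in general, while a figure legend of the study gives the same 48 h as the labels for RNA sequencing of SKBR-3. The labels name 2 library kits, and a stranded kit counted without strand, or the reverse, would change genes with antisense partners.

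Each group held 1 library, so no test was run within a line. A limma 3.58.1 fit in R 4.3.3, added after the data were seen, took log2(value + 1) of all 8 libraries with treatment and line as terms, which left 3 residual degrees of freedom, with Benjamini-Hochberg adjustment over 14429 genes and a threshold of 0.05. Its pairing comes from the line: each treatment was given to both. The value of 1 read in each table was recovered as the step that made most values below 1000 whole. With it, 83.8% to 85.2% of all values above 0 came within 0.02 reads of a whole number. No count test was run on these reads. Genes under 10 in all 8 libraries were removed, which left 14429 of 20531. Fold changes were taken on log2(value + 1), which understates changes of low genes. Intervals of a ratio are 95% Clopper-Pearson intervals from the recovered reads, those of a level are exact Poisson intervals, and those of a difference of 2 fold changes are delta-method intervals. The floor for a count of 0 was 3 reads. The calculation was tested on simulated data. Python 3.11.15, pandas 2.3.3 and scipy 1.17.1 were used.

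The members and the gene lists were chosen with earlier results of these data known. All 10 members were named. From each list, up to 3 genes with the largest change of 2-fold or more in the same direction in both lines were named for lapatinib and for JQ1, as were the 3 genes nearest in pattern to each member. Further list genes named in the text, and the search for motifs and gene span, were chosen after their values were seen. Alternatives left out each library in the limma fit, or changed the pseudocount, scaling, filter and threshold.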

Additional observations from a re-analysis of the deposited data

Results flagged for a closer look

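The following effects had counting intervals on opposite sides of no change in the lines, or with and without the other drug, and each is given as a difference of log2 fold changes. With 1 library a group none of these differences was tested against replicates. For lapatinib against DMSO, BT474m1 minus SKBR-3 was 4.09 for EGR1, 1.40 for JUN and -1.23 for IER3. For lapatinib added to JQ1, it was 3.55 for EGR1. When JQ1 was added to lapatinib, it was -1.81 for FOSL2 and 0.35 for JUNB, and for the combination against DMSO it was -1.04 for IER3. Within BT474m1, the effect of JQ1 on FOSL2 with lapatinib minus that without it was -1.40, and the effect of lapatinib on JUNB with JQ1 minus that without it was -0.25. Within SKBR-3, the effect of JQ1 on JUNB with lapatinib minus that without it was -1.03, and the effect of lapatinib on IER3 with JQ1 minus that without it was -0.92. The JUNB values of -1.03 and 0.35 rest partly on a fold change of -0.24 for JQ1 added to lapatinib in SKBR-3, which was -0.08 under the median of ratios scaling. The JUNB values in BT474m1 rest on fold changes of 0.09 and -0.17, which are small beside a 2-fold call.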

How the results depend on the processing

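The paired limma fit, with the cell line as the replicate block, called 3 members raised with the combination against DMSO, and leaving out each library in turn gave 1 to 4, lowest without the SKBR-3 DMSO library, where the share of all kept genes raised was 0.846% instead of 7.52%. Calls at 2-fold within a line rest on 1 library a group, so none could be left out there. Scaling to equal totals and requiring the counting interval to exclude no change kept every one of the 22 counts of raised or lowered members within 1.5 times. Scaling by the median of ratios moved the median of all kept genes by up to -0.15. In SKBR-3 it added ATF3 to the members raised with JQ1, at 1.04 (4.25% of all kept genes raised). It also added JUND to those raised with JQ1 added to lapatinib there, at 1.11 (4.19%). The same scaling gave 0 members raised between the untreated lines and 1 lowered, IER3, when lapatinib was added to JQ1 in BT474m1. A pseudocount of 10 left 1 member, EGR1, raised in that last comparison, and so did a filter of 100. The same filter left 1 member, EGR1, lowered with lapatinib in SKBR-3, since it removed FOS. Without a filter FOSL1, at 3 reads or fewer, entered as lowered and gave 1 member lowered with the combination in SKBR-3, 2 when lapatinib was added to JQ1 there, and 1 each with lapatinib and with JQ1 in BT474m1. At 1.5-fold, 4 members were raised with lapatinib in SKBR-3 (23.2% of all kept genes), 7 with JQ1 (9.49%) and 2 with lapatinib added to JQ1 (21.0%). In BT474m1 the raised counts at 1.5-fold were 5 with lapatinib (24.8%), 4 with JQ1 (11.9%), 6 with JQ1 added to lapatinib (12.7%) and 5 with lapatinib added to JQ1 (22.4%), and 4 between the untreated lines (37.4%). The lowered counts at 1.5-fold in BT474m1 were 1 each with lapatinib (15.6%), with JQ1 (21.1%) and with lapatinib added to JQ1 (14.5%). The cause of these shifts beyond the settings' own construction was not tested. No called fold change of a member changed sign under another scaling or pseudocount. Signs differed in 3 of 99 pairs of a member and a comparison, for FOSB and IER3 with JQ1 added to lapatinib in SKBR-3 and for FOSL2 between the untreated lines. Depth limited FOSL1 and FOSB, at 0 to 27 reads, and FOS, at 11 to 104 reads.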
